A study of Homo sapiens with 8 samples.

Results

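The response of PC3 cells to acute Notch activation is described here over every gene on the array. PC3 is an established prostate cancer line that came from a bone metastasis and grows without androgens. The labels give 2 PC3 groups, one overexpressing Notch1, here in its activated form, and one carrying GFP (green fluorescent protein) as control. The 4 PC3 arrays, 2 per group, were taken by these labels out of 8 arrays in all. The other 4 are of LNCaP cells, an androgen-responsive prostate cancer line from a lymph node metastasis, with the same 2 kinds of label. In its PC3 work the study used retroviruses and adenoviruses, both with GFP controls in some experiments, and plasmid transfection. No source used here gives the vector or the time behind these arrays. The study did not detect p53 protein in PC3 cells, so all 4 arrays come from cells without that regulator.

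Every group mean rests on n = 2 arrays. The methods speak of 2 chips for each sample, so the spread behind the p-values is that of these chips and may be technical only. PC3 arrays of one group correlated at 0.995 to 0.998 across probe sets and arrays of different groups at 0.986 to 0.991. Of 14 measured genes that mark PC3 cells, 8 had a mean level of at least log2 8, and 6 of the 14 rose with Notch1 and 0 fell (3 to 6 rises when 1 PC3 array was left out, 3 without Notch1 replicate 2). Among the markers of LNCaP and androgen response 0 of 5 were called (0 at an unadjusted p under 0.05 higher and 1 lower, limma). The brightest probe set of KLK3, which encodes prostate-specific antigen, read 8.27 and 7.90 on the GFP arrays and 7.81 and 8.10 on the Notch1 arrays. The other KLK3 probe sets were dimmer, with means of 4.32 to 7.55 over the 4 PC3 arrays, and none was called.

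Notch receptors are cut when they bind ligands of the Jagged and Delta families on a neighbouring cell. The freed intracellular part enters the nucleus, joins the DNA-binding protein RBPJ and turns on genes such as HES1, a repressor of transcription. In keratinocytes and other epithelia the pathway is known for promoting exit from the cell cycle and differentiation, while in other tissues it favours growth.

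Levels below are the deposited log2 values, and a difference is the Notch1 mean minus the GFP mean on that scale, so that a difference of 1 is a 2-fold rise. A probe set was called when its adjusted p in limma was under 0.05. Of 12558 probe sets tested, 526 were called higher (4.19%) and 253 lower (2.01%) with Notch1. Among the 2906 well expressed probe sets, those with a mean of at least log2 8 over the 4 PC3 arrays, 174 were called higher (5.99%) and 43 lower (1.48%). A change of at least 2-fold was reached by 153 of the called rises and 35 of the called falls, and by 43 and 12 of them at the well expressed levels. With 1 probe set per gene, 362 of 8226 genes rose (4.4%) and 183 fell (2.22%), and at the well expressed levels 130 of 2242 genes rose (5.8%) and 33 fell (1.47%). At an unadjusted p under 0.05 (limma) 963 of the 8226 genes were higher and 1122 lower. The shares of called genes are the background beside which the gene families below are given. Members of the families were chosen with earlier results of these data known. A share above the background can follow from that choice, so it is a description and no test of the family. Values under log2 5 count as background signal, and a difference that starts or ends there depends on where that background lies. Such a difference is given a second time with values under log2 5 raised to log2 5. A reading above log2 5 is by itself no proof of expression. The leukocyte markers CD14 and CD3E averaged 7.33 and 6.75 over the 4 PC3 arrays, and the brightest KLK3 probe set read near log2 8. Well expressed thus names a level of signal.

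The balance of rises and falls moved with the level. Among probe sets under log2 5, 96 were called higher and 73 lower, and the median difference was -0.12. Between log2 7 and 8, 109 were called higher and 41 lower, and between log2 9 and 10 the counts were 60 and 20, with a median difference of 0.06. Above log2 12 only 3 of 174 probe sets were called higher and 0 lower (4 at an unadjusted p under 0.05, limma). The median difference over all probe sets was -0.08 and over the well expressed ones 0.04. Counts also changed when 1 PC3 array was left out. Such a fit leaves 1 array in a group, which then adds nothing to the estimate of spread. Calls can therefore be lost or gained where the difference itself hardly moves. Without GFP replicate 1 the calls were 259 higher and 101 lower, without GFP replicate 2 they were 1003 and 691, without Notch1 replicate 1 they were 191 and 65, and without Notch1 replicate 2 they were 187 and 64. With the replicate number as a block they were 919 higher and 588 lower, and at the well expressed levels 324 higher and 84 lower.

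**Figure D1:**
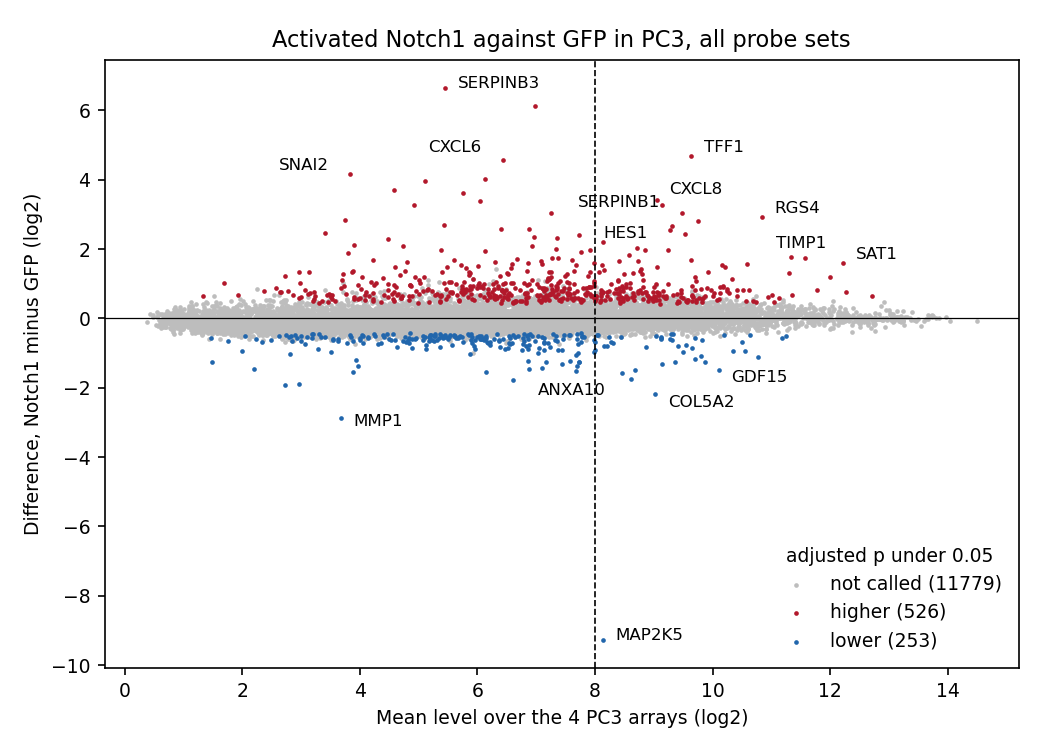
Each point is 1 of 12558 probe sets, placed by its mean log2 level over the 4 PC3 arrays (horizontal axis) and its log2 difference, Notch1 minus GFP (vertical axis). The 526 probe sets called higher are red, the 253 called lower are blue, the rest are grey, and the dashed line marks log2 8, from which a probe set counted as well expressed.

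**Figure D2:**
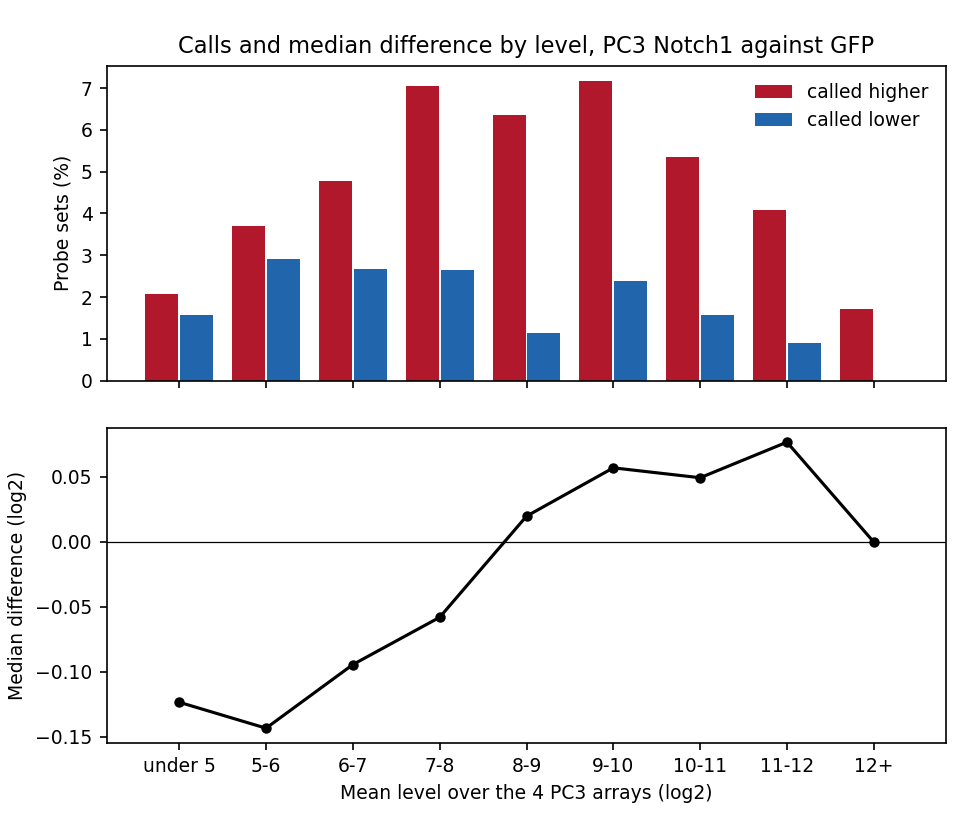
The upper panel gives the percent of probe sets called higher (red) and lower (blue) with Notch1 in each bin of mean log2 level over the 4 PC3 arrays, and the lower panel the median log2 difference of all probe sets in the bin. The median is -0.12 in the dimmest bin, lowest between log2 5 and 6 (-0.14) and highest between log2 11 and 12 (0.08), and the share called higher peaks between log2 9 and 10.

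HES1, the best known target of Notch, read 7.92 and 8.08 on the GFP arrays and 10.51 and 10.61 on the Notch1 arrays. The groups lay far apart, with a rise of 2.56 (5.89-fold, SE 0.12, adjusted p = 4.22e-07), and HES1 serves as the check of the labels, since NOTCH1 and the target HEY1 were not analysed here. Of 20 measured genes of the Notch pathway 3 rose and 0 fell, with a median difference of -0.09. Without either Notch1 array 1 rise was left, and without GFP replicate 2 there were 4. Besides HES1 these were ADAM10, a protease that cuts Notch receptors at the cell surface, with 6.84 and 6.81 on the GFP arrays and 7.54 and 7.48 on the Notch1 arrays, and SPEN, a corepressor that binds RBPJ, with 5.38 and 5.70 against 6.14 and 6.34. Both had differences near 0.70 (SE 0.12 and 0.15, adjusted p = 0.00805 and 0.0207), but the call of ADAM10 was lost without either Notch1 array (differences 0.66 and 0.72) and that of SPEN without either Notch1 array or GFP replicate 1 (0.54 to 0.79). The other 2 probe sets of ADAM10, at differences of 0.03 and 0.69, were not called. Of the ligand genes, JAG2 read 9.08 and 8.85 on the GFP arrays and 8.75 and 8.66 on the Notch1 arrays, a difference of -0.26 that was not called (adjusted p = 0.204). JAG1 was split between its probe sets, the brighter at 0.12 (adjusted p = 0.581) and a dimmer one, with a mean of 5.85, at 1.24 (SE 0.13, adjusted p = 0.000274).

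The letters GTGGGAA, which RBPJ binds, were searched on both strands of RefSeq promoters, taken from 250 bases before to 50 after the start of a gene (assembly GRCh38.p14). They occurred in 6.281% of 27305 promoters and in 5.622% of those of 6617 measured genes. Among genes that rose 19 of 299 promoters held them (6.355%), and among genes that fell 6 of 135 (4.444%). The share in the genes that rose was thus near that of all promoters. HES1 held them once, with the first base at -85 from the start. Its promoter, at chr3:194135898-194136197 on the + strand, is shown because HES1 is the direct readout of the pathway, with the match in capitals.
HES1: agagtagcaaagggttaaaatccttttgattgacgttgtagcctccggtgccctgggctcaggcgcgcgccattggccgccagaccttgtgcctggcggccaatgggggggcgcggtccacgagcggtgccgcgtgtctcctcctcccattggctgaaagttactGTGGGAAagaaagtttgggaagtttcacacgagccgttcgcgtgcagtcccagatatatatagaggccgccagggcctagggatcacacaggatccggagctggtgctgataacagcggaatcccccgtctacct

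Several of the largest rises at well expressed levels were of secreted proteins and of inhibitors of proteases. TFF1, a small trefoil peptide that mucous epithelia secrete, read 7.56 and 7.02 on the GFP arrays and 12.07 and 11.88 on the Notch1 arrays. It thus went from a middling level to one of the brightest on the array (4.69, 25.8-fold, SE 0.17, adjusted p = 1.1e-07). TFF2, its neighbour in the genome and in function, read 6.92 and 6.85 against 8.22 and 7.98, a rise of 1.21 (2.32-fold, SE 0.12, adjusted p = 0.000215). TFF3, another trefoil gene, was divided between probe sets. Its brightest read 8.31 on both GFP arrays and 8.43 on both Notch1 arrays (0.12, adjusted p = 0.52), whereas another with a mean of 7.91 rose by 1.96 (SE 0.18, adjusted p = 9.86e-05). Of 28 genes of trefoil peptides, mucins and secretory epithelium 5 rose and 0 fell, with a median difference of -0.19. The 5 rises were called whichever PC3 array was left out, and without GFP replicate 2 a further 2 genes were called lower. TCN1, a vitamin B12 binding protein of secretions, was among the brightest of them, with 8.11 and 8.51 on the GFP arrays and 10.84 and 10.65 on the Notch1 arrays (2.43, SE 0.15, adjusted p = 4.8e-06). CSN1S1, which encodes a milk casein, rose from 3.37 and 3.20, which is in the background, to 6.74 and 6.37 (3.27, SE 0.15, adjusted p = 4.38e-07, or 1.55 with values under log2 5 raised). CEACAM6, an adhesion molecule of mucosal surfaces, stayed under log2 5 on all arrays (3.02 and 2.66 against 4.93 and 4.99), and its call was lost when values under log2 5 were raised to log2 5.

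Serpins, proteins that trap and inactivate serine or cysteine proteases, changed in both directions. Of 22 measured serpin genes 5 rose (22.7%) and 2 fell (9.09%), and the 5 rises were called whichever PC3 array was left out. The falls were 0 without Notch1 replicate 2, 1 without GFP replicate 1 or Notch1 replicate 1, and 4 without GFP replicate 2. SERPINB3, also known as squamous cell carcinoma antigen, was at background on the GFP arrays (2.43 and 1.82) and well expressed on the Notch1 arrays (8.57 and 8.99), a difference of 6.66 (SE 0.21, adjusted p = 8.19e-08) that came to 3.78 with values under log2 5 raised. Its neighbour SERPINB4 is nearly identical in sequence, so the signal of both genes cannot be told apart here. SERPINB1, an inhibitor of neutrophil elastase, read 8.01 and 7.92 on the GFP arrays and 11.06 and 10.94 on the Notch1 arrays, which is 8.19-fold (3.03, SE 0.14, adjusted p = 5.34e-07). SERPINB7 read 6.49 and 6.58 against 8.92 and 8.94 (2.40, adjusted p = 1.02e-06) and SERPINI1, an inhibitor first described in the nervous system, 6.64 and 6.97 against 8.93 and 8.51 (1.91, adjusted p = 9.25e-05). SERPINA1, the plasma antitrypsin, rose less, by 1.28 (SE 0.12, adjusted p = 0.000129). Elastase inhibitors of another family rose as well. SLPI read 9.70 and 9.89 against 11.44 and 11.29, a rise of 1.57 (SE 0.12, adjusted p = 2.61e-05), and PI3, also called elafin, read 7.09 and 6.99 against 9.38 and 9.11, a rise of 2.20 (SE 0.14, adjusted p = 5.49e-06).

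Among proteases the trypsins fell and others rose. PRSS3, a trypsin, read 11.35 and 11.28 on the GFP arrays and 10.36 and 10.08 on the Notch1 arrays, 2.14-fold lower (difference -1.10, SE 0.16, adjusted p = 0.0024). PRSS2, another trypsin of nearly the same sequence, whose probes may share signal with PRSS3, read 10.02 and 10.22 against 9.54 and 9.47 (-0.62, adjusted p = 0.0192), and its call was lost without either Notch1 array (-0.65 and -0.58). SERPIND1, the thrombin inhibitor heparin cofactor II, was a serpin that fell, from 7.28 and 7.68 to 6.52 and 5.97 (-1.24, SE 0.20, adjusted p = 0.00552), with the call lost without Notch1 replicate 2 (-0.96). Among 31 metalloproteinases, their TIMP inhibitors and genes of the urokinase system 4 rose and 2 fell, with a median difference of -0.14, and without GFP replicate 2 there were 6 of each. TIMP1, a secreted inhibitor of metalloproteinases, was the brightest, with 10.82 and 10.59 on the GFP arrays and 12.47 and 12.42 on the Notch1 arrays (1.74, 3.35-fold, SE 0.13, adjusted p = 2.35e-05). PLAU, the urokinase protease, rose from 9.59 and 9.74 to 10.61 and 10.55 (0.91, SE 0.14, adjusted p = 0.00373). The collagenase gene MMP1 fell from 5.06 and 5.16 to 2.43 and 2.06 and MMP13 from 3.77 and 4.08 to 1.91 and 2.13, both at or under the level where background dominates, and neither call held with values under log2 5 raised to log2 5. MMP7, the smallest of these proteases, went the other way, from 3.82 and 3.89 to 5.35 on both Notch1 arrays (1.496, adjusted p = 2.64e-05, or 0.35 with values under log2 5 raised).

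**Figure D3:**
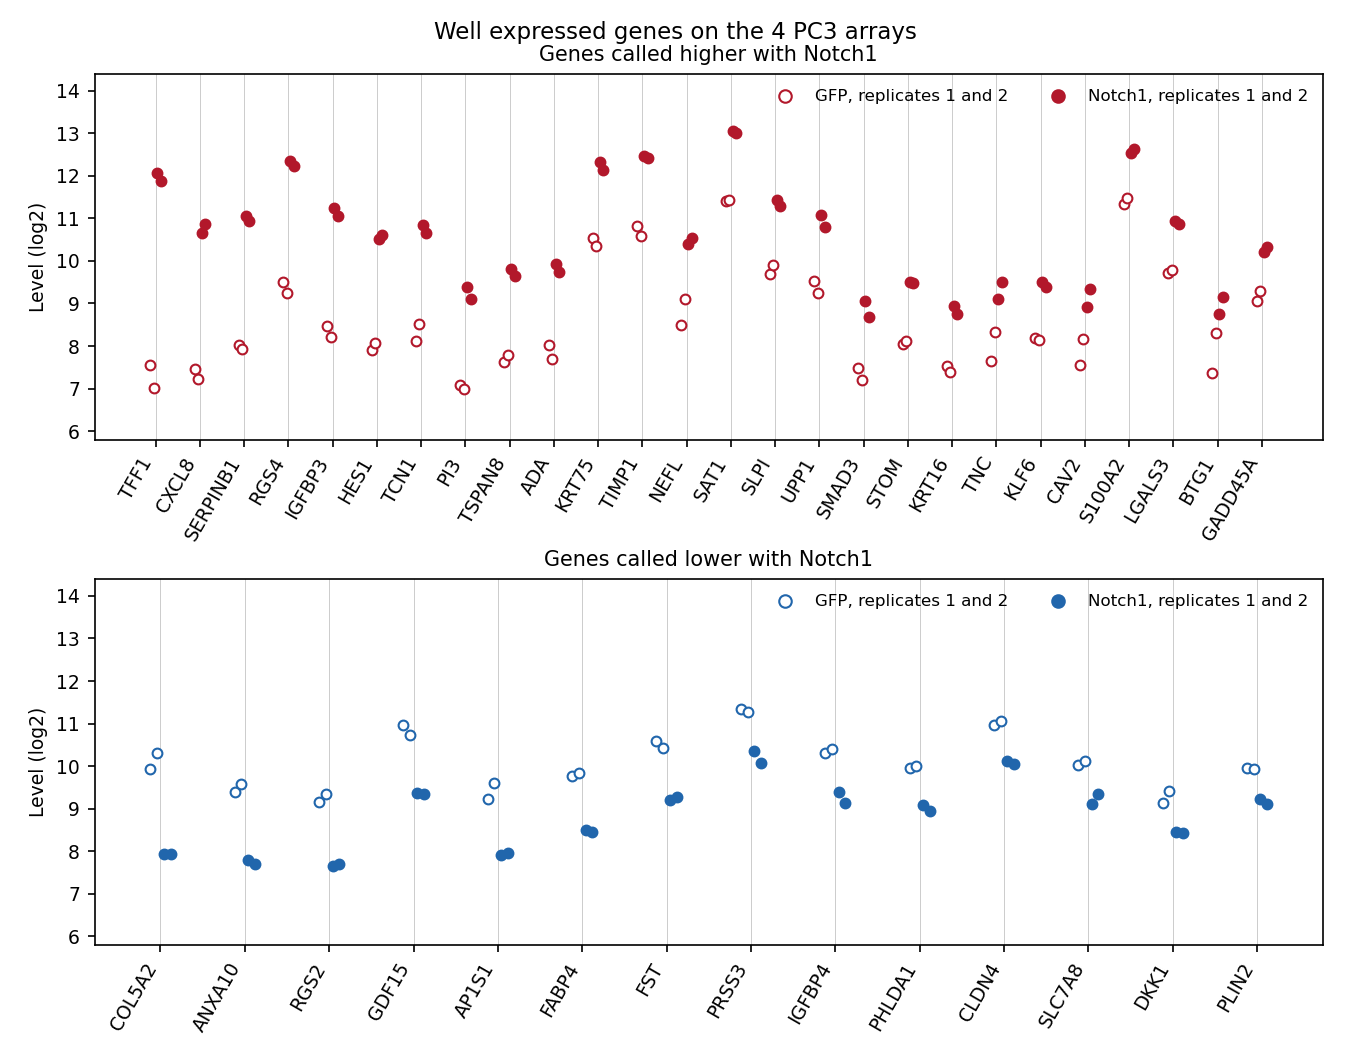
Log2 level on each of the 4 PC3 arrays for 40 well expressed genes named in the text, open circles for GFP and filled circles for Notch1, with rises in red in the upper panel and falls in blue in the lower panel, ordered by difference. The 26 rises and 14 falls were picked for large differences among called genes whose groups did not overlap. The separation of the groups therefore follows from that choice and is no separate result. The gaps between groups are wide beside those within a group for TFF1, CXCL8, SERPINB1, RGS4 and COL5A2.

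Of 28 measured keratins and genes of stratified (squamous) epithelium 7 rose (25%) and 0 fell, or 5 to 6 rises when 1 PC3 array was left out, and 13 of the 28 differences were above 0 (median -0.06). Of the 11 at well expressed levels 5 rose and 6 were not called, with a median difference of 0.36 against 0.04 over all well expressed genes. KRT75, a keratin of hair follicles, was the brightest to rise, with 10.54 and 10.34 on the GFP arrays and 12.32 and 12.13 on the Notch1 arrays (1.78, 3.44-fold, SE 0.12, adjusted p = 1.15e-05). KRT16, a keratin of wounded and thickened epidermis, read 7.54 and 7.38 against 8.94 and 8.75. KRT15, a keratin of basal cells, read 6.80 and 6.93 against 8.05 and 7.86. The rises were 1.38 and 1.09 (SE 0.12 for both, adjusted p = 8.24e-05 and 0.000424). S100A2, which binds calcium and marks basal cells, rose from 11.33 and 11.48 to 12.54 and 12.63 (1.18, SE 0.12, adjusted p = 0.000223). The simple epithelial keratin KRT19 read 11.13 and 11.09 against 11.57 and 11.37, a difference of 0.36 that was not called (adjusted p = 0.176). SERPINB3 and PI3, described above with the protease inhibitors, are known products of the same kind of epithelium. SERPINB3 is counted among the 7 rises here and among those of the serpins too.

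Claudins, tight junction proteins and desmosomes seal and rivet epithelial cells together. Of 28 such genes 5 fell (17.9%) and 1 rose (3.57%), with a median difference of -0.20, and 1 to 4 fell when 1 PC3 array was left out. CLDN4, a claudin of tight junctions, was the only well expressed one to fall, from 10.98 and 11.06 to 10.11 and 10.06 (-0.94, SE 0.11, adjusted p = 0.000773). CLDN3 read 7.228 and 7.005 against 6.45 and 6.46 (-0.66, adjusted p = 0.0228), but its call was lost without GFP replicate 1 or either Notch1 array (-0.67 to -0.55). PKP2, a desmosome plaque protein, was the one that rose, from 1.98 and 2.38 to 4.58 and 4.67, all of it under log2 5, where the call was lost once such values were raised to log2 5. EPCAM, an adhesion molecule of simple epithelia, read 8.56 and 8.61 on the GFP arrays and 8.69 and 8.74 on the Notch1 arrays and was not called (0.13, adjusted p = 0.519).

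The chemokines and interleukins were mostly at background in PC3 cells, with 28 of 41 genes at a mean under log2 5, yet 7 rose (17.1%) and 1 fell (2.44%). When 1 PC3 array was left out 6 to 8 rose and 0 to 5 fell. The chemokine ligands named here draw neutrophils. CXCL8, or interleukin 8, read 7.47 and 7.23 on the GFP arrays and 10.65 and 10.86 on the Notch1 arrays, which is 10.6-fold (3.40, SE 0.13, adjusted p = 1.75e-07). CXCL6 went from 3.88 and 4.43, in the background, to 8.75 and 8.70 (4.56, SE 0.18, adjusted p = 2.59e-07, or 3.72 with values under log2 5 raised). CXCL2 was lower throughout, at 3.61 and 3.78 against 5.95 and 5.62 (2.09, SE 0.13, adjusted p = 6.3e-06), and its call was lost when values under log2 5 were raised to log2 5. Members of the interleukin 1 family joined them. IL1B, a major fever-causing cytokine, read 6.97 and 6.85 against 8.37 and 8.53 and IL18 5.34 and 5.64 against 7.12 on both Notch1 arrays, rises of 1.54 and 1.63 (SE 0.14 and 0.13, adjusted p = 9.25e-05 and 2.64e-05).

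Of 25 subunits, inhibitors and targets of NF-kB, the factor best known for driving these cytokine genes, 2 rose and 0 fell, with a median difference of 0.00, and 1 rose without either Notch1 array and 4 without GFP replicate 2. IER3, an early response gene, rose from 9.02 and 9.35 to 10.07 and 10.17 (0.93, SE 0.14, adjusted p = 0.0025). TRAF3, an adaptor that restrains one branch of the pathway, read 7.70 and 7.59 against 8.32 and 8.25 (0.64, SE 0.11, adjusted p = 0.00751), and its call was lost without either Notch1 array (0.61 and 0.67). NFKB1, which encodes the p50 subunit, read 9.27 and 9.38 against 9.08 and 9.23 and was not called (-0.17, adjusted p = 0.412). The letters GGAATTTCC, part of the NF-kB elements known in CXC chemokine genes, were searched on both strands of the same promoters. They occurred in 129 of 27305 promoters (0.4724%), in 36 of 6617 measured genes (0.5441%), in 3 of 299 that rose and in 0 of 135 that fell. The 3 were CXCL8, CXCL6 and CXCL2, and since the letters were chosen as those of this gene family, the match is a description of the family and of no other gene. The matches, in capitals, begin at -91, -89 and -77 from the start, in chr4:73740319-73740618 (+), chr4:73836428-73836727 (+) and chr4:74099146-74099445 (-), and they are shown because these are the 3 chemokine genes that rose from a shared gene cluster.
CXCL8: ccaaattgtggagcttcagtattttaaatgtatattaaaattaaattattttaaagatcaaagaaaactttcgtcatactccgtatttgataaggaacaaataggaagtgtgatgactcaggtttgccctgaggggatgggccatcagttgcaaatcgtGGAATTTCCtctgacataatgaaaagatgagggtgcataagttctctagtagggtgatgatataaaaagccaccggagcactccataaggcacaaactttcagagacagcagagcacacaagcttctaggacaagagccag
CXCL6: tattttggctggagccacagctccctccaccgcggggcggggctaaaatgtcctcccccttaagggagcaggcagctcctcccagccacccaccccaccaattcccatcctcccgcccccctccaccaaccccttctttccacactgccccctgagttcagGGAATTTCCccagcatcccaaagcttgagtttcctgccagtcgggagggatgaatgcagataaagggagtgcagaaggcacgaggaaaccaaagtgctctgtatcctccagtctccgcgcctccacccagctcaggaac
CXCL2: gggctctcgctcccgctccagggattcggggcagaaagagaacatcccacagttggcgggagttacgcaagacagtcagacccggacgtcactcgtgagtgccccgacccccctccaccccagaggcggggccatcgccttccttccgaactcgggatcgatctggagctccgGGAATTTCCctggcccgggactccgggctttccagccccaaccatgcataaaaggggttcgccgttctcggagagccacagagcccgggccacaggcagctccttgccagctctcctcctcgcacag

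CDKN1A, which encodes the CDK inhibitor p21, read 6.45 and 6.36 on the GFP arrays and 8.28 and 8.00 on the Notch1 arrays. This was a rise of 1.74 (3.34-fold, SE 0.13, adjusted p = 1.9e-05). The other 6 measured CDK inhibitor genes were not called, and 5 of the 7 lay under 0 (median -0.29). Of 23 p53 targets and stress genes 6 rose (26.1%) and 1 fell (4.35%), with 3 to 5 rises when 1 PC3 array was left out and a median difference of -0.01. Of the 9 at well expressed levels 4 rose and 1 fell. GADD45A, which slows the cycle after DNA damage, read 9.06 and 9.29 against 10.21 and 10.32 (1.09, SE 0.13, adjusted p = 0.000539). PMAIP1, a death-promoting member of the BCL2 family also called NOXA, rose from 7.81 and 8.24 to 8.91 and 9.12 (0.99, SE 0.17, adjusted p = 0.00821), with the call lost without Notch1 replicate 2 (0.88). PLK2, a polo-like kinase, rose from background, 2.59 and 2.07, to 4.89 and 5.44 and lost its call once values under log2 5 were raised to log2 5. GDF15, a secreted stress factor of the TGF-beta family and a known p53 target, was the gene that fell. It read 10.96 and 10.72 on the GFP arrays and 9.38 and 9.35 on the Notch1 arrays, a fall of 1.48 on the log2 scale (SE 0.13, adjusted p = 6.17e-05).

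Kruppel-like factors are regulators of transcription, and the TOB and BTG proteins hold back proliferation. Of 16 measured 4 rose (25%) and 1 fell (6.25%), and at the well expressed levels 3 of 4 rose. These calls changed when 1 PC3 array was left out, in some genes with a smaller difference and in others with a difference that held. KLF6, a tumour suppressor of the Kruppel-like family, read 8.19 and 8.13 on the GFP arrays and 9.50 and 9.38 on the Notch1 arrays (1.28, SE 0.21, adjusted p = 0.00515). TOB1 read 7.656 and 8.495 against 8.94 and 9.04 (0.91, SE 0.22, adjusted p = 0.0359) and BTG1 7.36 and 8.31 against 8.75 and 9.14 (1.12, SE 0.26, adjusted p = 0.0331). In both genes GFP replicate 1 lay well under GFP replicate 2, and the groups came closer without it. The differences were 0.49 for TOB1 and 0.64 for BTG1 without that array, and both calls were lost there and without either Notch1 array. KLF6 lost its call without Notch1 replicate 1 alone (1.22). KLF4, a factor of differentiating epithelium, fell from 7.31 and 7.30 to 6.76 and 6.55 (-0.65, SE 0.13, adjusted p = 0.0179), a call lost without GFP replicate 1 or either Notch1 array (-0.75 to -0.55).

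No gene of the list that copies DNA fell. Of 44 genes of DNA replication and S phase 5 rose (11.4%) and 0 fell, 36 of 44 differences were above 0, and the median difference was 0.17 against -0.07 over all genes. At the well expressed levels 24 of 27 differences were above 0, with a median of 0.17 against 0.04 over all well expressed genes. Only 1 rise was left without GFP replicate 1 or without either Notch1 array, and 10 were called without GFP replicate 2. That firm rise was of RRM2, a subunit of ribonucleotide reductase, which makes the building blocks of DNA, with 5.86 and 5.90 on the GFP arrays and 6.83 on both Notch1 arrays (0.95, SE 0.11, adjusted p = 0.000449). MCM6, part of the replicative helicase, read 9.45 and 9.72 against 10.05 and 10.08 (0.48, adjusted p = 0.0499), and DUT, which keeps uracil out of DNA, 10.70 and 10.92 against 11.28 and 11.29 (0.48, adjusted p = 0.0427), with both calls lost without GFP replicate 1 or either Notch1 array (0.35 to 0.49). Among 35 genes of G2, the spindle and mitosis 1 rose and 0 fell, with a median difference of -0.05, and 4 rose without GFP replicate 2. The rise was of CDC25B, a phosphatase that opens the way into mitosis, with 9.15 and 8.97 against 9.99 and 9.75 (0.81, SE 0.13, adjusted p = 0.00493; the call was lost without Notch1 replicate 1, 0.69). LMNB1, which encodes the nuclear lamin B1, fell from 8.60 and 8.63 to 8.02 and 7.85 (-0.68, SE 0.12, adjusted p = 0.00799), a call lost without Notch1 replicate 2 (-0.60).

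SMAD proteins carry signals of the TGF-beta family into the nucleus, with SMAD2 and SMAD3 on the TGF-beta and activin branch. SMAD3 read 7.49 and 7.21 on the GFP arrays and 9.07 and 8.69 on the Notch1 arrays, a rise of 1.53 (2.88-fold, SE 0.17, adjusted p = 0.000341). Of its 3 other probe sets 2 were called higher (1.14 and 1.35) and 1 was not (0.37, adjusted p = 0.103). SMAD2 read 6.65 and 6.83 against 7.56 and 7.64 (0.86, SE 0.12, adjusted p = 0.00245). In the list of 30 TGF-beta and SMAD genes 5 rose (16.7%) and 2 fell (6.67%), with 2 to 5 rises when 1 PC3 array was left out and a median difference of -0.02. FST, or follistatin, a secreted trap of activins, fell from 10.60 and 10.42 to 9.21 and 9.28 (-1.27, SE 0.12, adjusted p = 9.96e-05). The ligand gene TGFB1 was divided. Its brightest probe set rose from 8.03 and 7.73 to 8.70 and 8.37 (0.66, SE 0.16, adjusted p = 0.0384) and lost the call without GFP replicate 2 or either Notch1 array (0.49 to 0.82), and its other 2 lay at 0.00 and -0.05. On the BMP branch 2 of 15 genes rose and 0 fell (1 rise without Notch1 replicate 2 and 3 without either GFP array). BMP6, a ligand, read 6.07 and 5.71 against 8.11 and 7.83, a rise of 2.09 (4.25-fold, SE 0.16, adjusted p = 2.18e-05). ID1, a common target of BMP signals, read 10.77 and 11.11 against 11.28 and 11.43 and was not called (0.41, adjusted p = 0.123). With the replicate number as a block ID1 was called higher (0.41, adjusted p = 0.0378, limma), and without GFP replicate 2 its difference was 0.58.

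Of 22 genes of mesenchymal transition 5 rose (22.7%) and 0 fell, with 3 to 5 rises when 1 PC3 array was left out and a median difference of -0.04. SNAI2, or Slug, a repressor of epithelial genes, was at background on the GFP arrays (1.18 and 2.30) and at 5.95 and 5.88 on the Notch1 arrays, a difference of 4.17 (SE 0.29, adjusted p = 1.17e-05) that came to 0.91 with values under log2 5 raised. SPARC, a secreted matrix protein, read 5.96 and 5.67 against 7.41 and 7.33 (1.56, SE 0.15, adjusted p = 0.000126). TNC, or tenascin C, read 7.64 and 8.32 against 9.11 and 9.49 (1.32, SE 0.24, adjusted p = 0.0105). Its call was lost without GFP replicate 1 or Notch1 replicate 2 (0.98 and 1.14), and its other probe set, with a mean of 3.65, was not called (0.29).

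Surface and matrix genes changed in both directions. COL5A2, a chain of fibrillar collagen V, had the largest well expressed fall apart from one probe set taken up below, from 9.94 and 10.30 on the GFP arrays to 7.93 on both Notch1 arrays (-2.19, 4.57-fold lower, SE 0.13, adjusted p = 4.28e-06). ITGB4, an integrin chain that anchors epithelium to the basement membrane, fell from 8.51 and 8.36 to 7.004 and 6.841 (-1.51, SE 0.14, adjusted p = 0.000127), while its other probe set lay at -0.20 and was not called. ITGA3, an integrin chain for laminin, rose from 9.48 and 9.26 to 10.01 and 9.96 (0.62, adjusted p = 0.0233), a call lost without GFP replicate 2 or either Notch1 array (0.51 to 0.64). Another ITGA3 probe set, with a mean of 9.23, rose by 1.00 (SE 0.12, adjusted p = 0.00059). Over the 48 collagens, laminins and integrins 2 rose, 3 fell and the median difference was -0.05, near that of all genes, and 0 rose without Notch1 replicate 2. ANXA10, an annexin of gastric epithelium, was the only annexin of 11 called, and it fell from 9.39 and 9.58 to 7.79 and 7.70 (-1.73, 3.33-fold lower, SE 0.12, adjusted p = 1.07e-05).

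Among 22 genes of caveolins, galectins and CD44 4 rose (18.2%) and 0 fell, all 4 of them well expressed. Without Notch1 replicate 2 only 2 rose, and without either GFP array 1 fell. LGALS3, or galectin 3, a sugar-binding protein, read 9.72 and 9.79 against 10.94 and 10.87 (1.15, SE 0.13, adjusted p = 0.000564). CD44, the hyaluronan receptor, read 7.69 and 7.84 against 8.93 and 8.61 (1.00, SE 0.13, adjusted p = 0.0014), and of its 6 other probe sets 2 rose, by 1.60 and 0.91, and 4 were not called. CAV2, a caveolin, rose from 7.56 and 8.15 to 8.93 and 9.35 (1.28, SE 0.20, adjusted p = 0.00373), with the call lost without Notch1 replicate 2 (1.07), and its other probe set, with a mean of 3.68, was not called (-0.10). CAV1 read 8.73 and 9.23 against 9.61 and 9.72 (0.68, SE 0.15, adjusted p = 0.029), a call lost without GFP replicate 1 or either Notch1 array (0.44 to 0.74). CD44, CAV1 and CAV2 also belong to the genes that mark PC3 cells. TSPAN8, a tetraspanin of the cell surface, rose from 7.62 and 7.79 to 9.81 and 9.65 (2.02, 4.07-fold, SE 0.13, adjusted p = 5.78e-06) and STOM, a membrane scaffold, from 8.05 and 8.12 to 9.51 and 9.48 (1.41, SE 0.13, adjusted p = 9.86e-05).

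Regulators of G proteins and of MAP kinases included rises and falls within 1 family. RGS4, which speeds the turning off of G protein signals, read 9.49 and 9.25 on the GFP arrays and 12.35 and 12.23 on the Notch1 arrays, a 7.57-fold rise at high levels (2.92, SE 0.13, adjusted p = 3.49e-07). RGS2, of the same family, fell from 9.15 and 9.34 to 7.65 and 7.70 (-1.57, 2.96-fold lower, SE 0.12, adjusted p = 2e-05). Over 60 genes of G protein receptor signalling 5 rose and 5 fell (8.33% each), with 3 to 8 rises and 2 to 6 falls when 1 PC3 array was left out, both highest without GFP replicate 2. The receptors showed the same split. ADGRG6, an adhesion receptor, rose from background, 3.62 and 4.28, to 7.48 and 7.63 (3.60, SE 0.20, adjusted p = 2.03e-06, or 2.56 with values under log2 5 raised), ADORA2B, an adenosine receptor, rose from 8.47 and 8.62 to 9.60 and 9.47 (0.99, SE 0.13, adjusted p = 0.00101), and LPAR1, a receptor for lysophosphatidic acid, fell from 7.26 and 7.75 to 5.66 and 5.78 (-1.79, 3.45-fold lower, SE 0.16, adjusted p = 6.88e-05).

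Of 19 dual specificity phosphatases, Sprouty proteins and other feedback genes of ERK, the growth factor kinase, 3 fell (15.8%) and 1 rose (5.26%), with 2 to 4 falls and 0 to 2 rises when 1 PC3 array was left out. DUSP4, which removes phosphate from ERK, read 8.41 and 8.33 against 7.19 and 7.01 (-1.27, SE 0.12, adjusted p = 9.96e-05). PHLDA1, induced by growth factors, fell from 9.96 and 9.99 to 9.09 and 8.94 (-0.96, SE 0.13, adjusted p = 0.0018). DUSP5, whose protein acts on ERK in the nucleus, was the one that rose, from 7.77 and 7.74 to 8.55 and 8.48 (0.76, adjusted p = 0.0138), a call lost without either Notch1 array (0.73 and 0.79). Both directions thus occurred among phosphatases of the same kinase.

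Growth factors and their binding proteins gave some of the largest changes. IGFBP3, which binds insulin-like growth factors outside the cell, read 8.48 and 8.21 on the GFP arrays and 11.25 and 11.04 on the Notch1 arrays (2.80, 6.97-fold, SE 0.16, adjusted p = 2.26e-06). IGFBP4 went down from 10.32 and 10.39 to 9.40 and 9.13 (-1.09, SE 0.14, adjusted p = 0.00126), so 2 proteins of one family changed in opposite directions at well expressed levels. CCN1, a secreted matricellular protein, rose from 4.23 and 4.45 to 7.75 and 7.71 (3.39, SE 0.15, adjusted p = 3.49e-07, or 2.73 with values under log2 5 raised), and CCN2, or connective tissue growth factor, from 6.79 and 7.28 to 7.97 and 8.17 (1.03, SE 0.16, adjusted p = 0.0044; the call was lost without Notch1 replicate 2, 0.93). Of 50 receptor tyrosine kinases and growth factors 6 rose (12%) and 1 fell (2%), with 3 to 5 rises when 1 PC3 array was left out (3 without either Notch1 array). ROR1, a receptor of the WNT family of ligands, rose from 5.91 and 5.55 to 8.79 and 8.77 (3.05, 8.26-fold, SE 0.14, adjusted p = 4.22e-07). HBEGF, a ligand of the EGF receptor, read 6.79 and 6.44 against 7.91 and 7.64 (1.16, SE 0.14, adjusted p = 0.000843). VEGFC, which drives the growth of lymphatic vessels, fell from 7.65 and 7.93 to 6.52 and 6.55 (-1.26, SE 0.14, adjusted p = 0.000314), and DKK1, an inhibitor of WNT receptors, from 9.14 and 9.42 to 8.47 and 8.43 (-0.83, SE 0.15, adjusted p = 0.0108; the call was lost without either Notch1 array, -0.85 and -0.81).

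**Figure D4:**
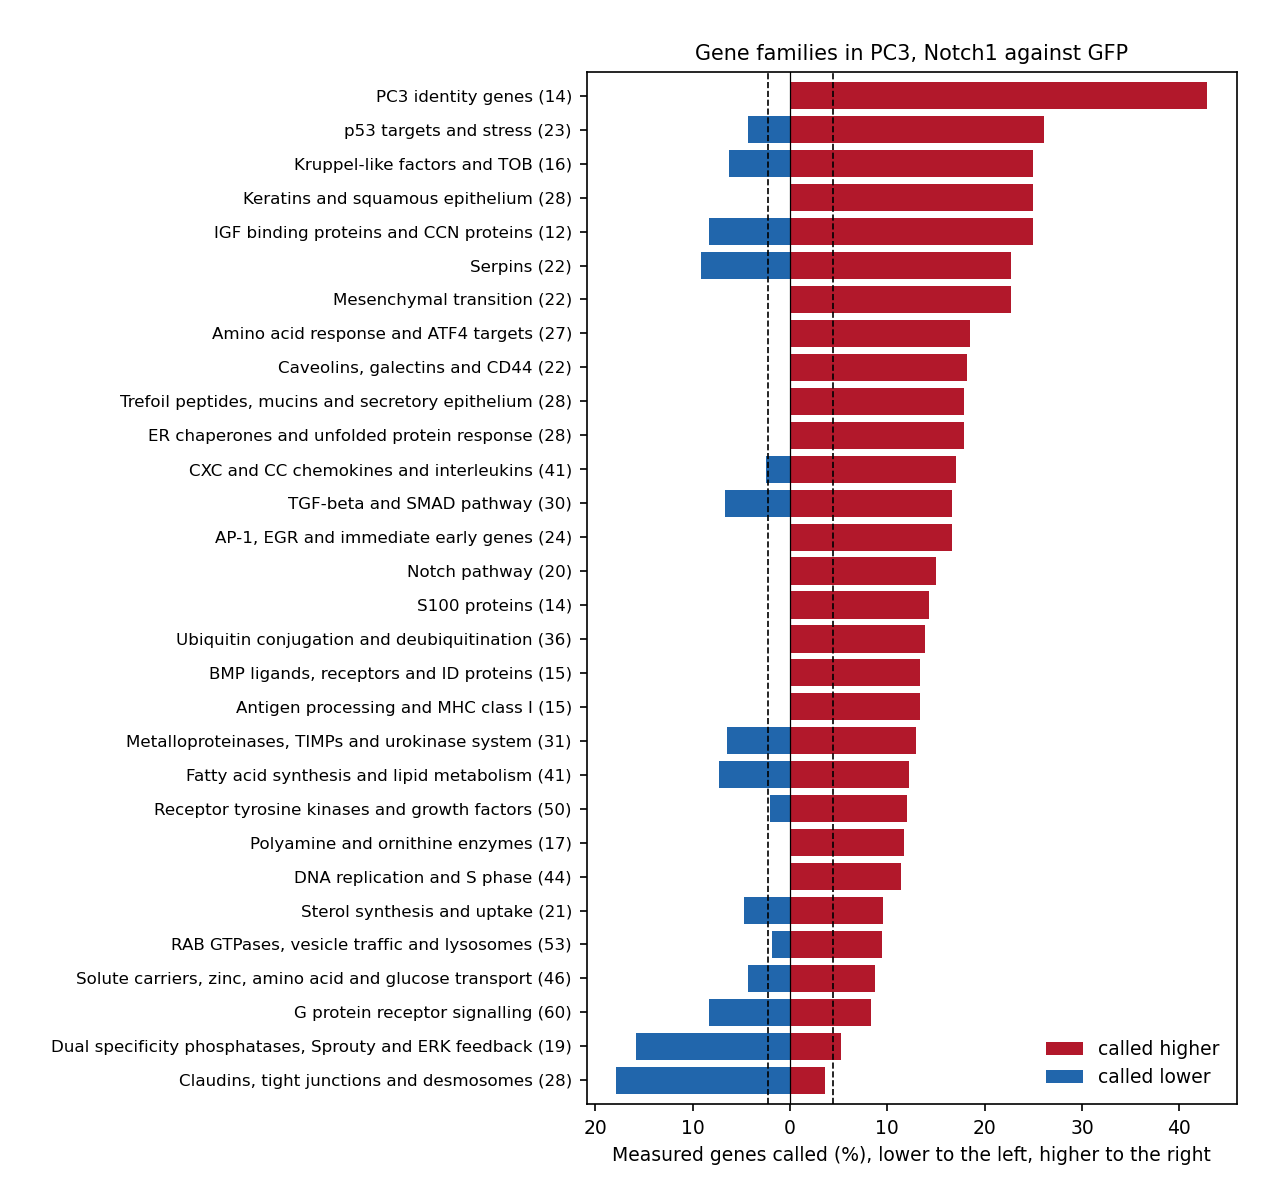
Percent of the measured genes of each family called higher (red, to the right) or lower (blue, to the left) with Notch1 in PC3, for the 30 families with at least 10 measured genes and the largest shares called, with the number measured beside the name. Dashed lines mark the shares over all 8226 genes, 4.4% higher and 2.22% lower.

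Of 17 polyamine and ornithine genes 2 rose, SAT1 and AZIN1, and of 35 genes of nucleotide synthesis and salvage 2, ADA and DUT, with 0 falls in either. SAT1, which acetylates polyamines and so sends them out of the cell, read 11.41 and 11.44 on the GFP arrays and 13.05 and 13.01 on the Notch1 arrays (1.60, 3.04-fold, SE 0.11, adjusted p = 1.03e-05). Another probe set rose by 1.97, and one more, with a mean of 4.69, was not called (-0.05). AZIN1, which protects the enzyme ODC1 from breakdown, read 7.54 and 7.95 against 8.44 and 8.55 (0.74, SE 0.18, adjusted p = 0.0407), a call lost without GFP replicate 1 or either Notch1 array (0.54 to 0.80). Its dimmer probe sets, at differences of 0.85 and 0.58, were not called (adjusted p = 0.0589 and 0.136). ODC1, the enzyme that makes polyamines, read 12.54 and 12.40 against 12.31 and 12.22 and was not called (-0.20, adjusted p = 0.331). ADA, adenosine deaminase, rose from 8.02 and 7.70 to 9.93 and 9.74 (1.98, 3.94-fold, SE 0.15, adjusted p = 2.28e-05), and UPP1, uridine phosphorylase, which is in neither list, from 9.52 and 9.25 to 11.08 and 10.79 (1.55, SE 0.15, adjusted p = 0.000144). In each of these lists 1 rise was left without GFP replicate 1 or without either Notch1 array, and without GFP replicate 2 there were 4 and 3.

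Chaperones of the endoplasmic reticulum (ER), which fold secreted proteins, and genes of the amino acid response driven by the factor ATF4 are known to answer to stress in that compartment. Of 28 ER chaperone and unfolded protein response genes 5 rose (17.9%), 0 fell and 20 of 28 differences were above 0 (median 0.17), and of 27 amino acid response genes 5 rose (18.5%), 0 fell and 20 were above 0 (median 0.16). The other members were not called. At the well expressed levels 15 of 18 differences were above 0 in the former list (median 0.25) and 12 of 16 in the latter (median 0.15). The median over all well expressed genes was 0.04. When 1 PC3 array was left out the rises were 0 to 8 of the former and 2 to 7 of the latter. HSPA5, or BiP, the main ER chaperone, read 9.53 and 9.87 against 10.49 and 10.80 (0.95, SE 0.15, adjusted p = 0.00497; the call was lost without Notch1 replicate 2, 0.79). CEBPB, a factor of the C/EBP family, rose from 9.74 and 9.92 to 10.64 and 10.71 (0.85, SE 0.13, adjusted p = 0.00341). ATF4 itself read 10.86 and 10.84 against 11.31 and 11.25, just outside the threshold (0.42, SE 0.12, adjusted p = 0.0583). ATF4 was called higher with median centring and with the replicate block (adjusted p = 0.0376 and 0.0305, limma). It was also called with the trended prior and the filter on dim probe sets (adjusted p = 0.0149 and 0.0422), but under no other alternative. CALR, or calreticulin, read 9.44 and 9.46 against 9.96 and 10.02 (0.54, adjusted p = 0.0182) and SLC7A5, an amino acid transporter, 9.35 and 9.47 against 9.82 and 9.98 (0.49, adjusted p = 0.0407), both calls lost without GFP replicate 1 or either Notch1 array (0.41 to 0.57). Another CALR probe set, with a mean of 8.81, rose by 0.74 (SE 0.11, adjusted p = 0.0028). SLC7A8, another transporter of amino acids, fell from 10.02 and 10.12 to 9.11 and 9.36 (-0.84, SE 0.12, adjusted p = 0.00268). The letters TGATGNAA (N for any base), shared by ATF4 and C/EBP elements, were found on either strand in 3.673% of all promoters. Among the 6617 measured genes the share was 2.388%. It was 2.007% in genes that rose (6 of 299) and 5.185% in genes that fell (7 of 135), with no test.

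Lipid genes changed in both directions. Of 41 genes of fatty acid and lipid metabolism 5 rose (12.2%) and 3 fell (7.32%), with a median difference of 0.01. Without Notch1 replicate 1 the counts were 0 and 2, without Notch1 replicate 2 they were 1 and 1, without GFP replicate 1 they were 1 and 3, and without GFP replicate 2 they were 7 and 2. SCD, which desaturates fatty acids, rose from 7.99 and 8.31 to 9.11 and 8.94 (0.88, SE 0.13, adjusted p = 0.00364; the call was lost without Notch1 replicate 1, 0.79), and FASN, fatty acid synthase, from 9.59 and 9.51 to 10.18 and 10.08 (0.58, SE 0.12, adjusted p = 0.021). SQLE, an enzyme of sterol synthesis, read 8.47 and 8.73 against 9.33 and 9.40 (0.76, SE 0.15, adjusted p = 0.0142). The calls of FASN and SQLE were lost without GFP replicate 1 or either Notch1 array (0.53 to 0.80). FABP4, a carrier of fatty acids in fat cells, fell from 9.76 and 9.84 to 8.49 and 8.46 (-1.32, 2.5-fold lower, SE 0.13, adjusted p = 0.000152), and PLIN2, which coats lipid droplets, from 9.96 and 9.93 to 9.22 and 9.11 (-0.78, SE 0.12, adjusted p = 0.00367; the call was lost without Notch1 replicate 2, -0.72). ACAA2, an enzyme of fatty acid oxidation, read 5.76 and 6.05 against 6.38 and 6.64 (0.60, adjusted p = 0.0406), and ALOX15, a lipoxygenase, read 6.68 and 6.99 against 6.16 and 6.39 (-0.56, adjusted p = 0.0472). Both calls were lost without either Notch1 array, that of ACAA2 also without GFP replicate 1 (0.46 to 0.73) and that of ALOX15 without GFP replicate 2 (-0.68 to -0.41). CYP1B1, a cytochrome P450 that oxidises oestrogens and polycyclic compounds, rose from background, 3.43 and 2.81, to 6.81 and 7.34 (3.95, SE 0.22, adjusted p = 2.01e-06, or 2.08 with values under log2 5 raised).

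Of 42 genes of NRF2, glutathione and thioredoxin, the antioxidant defence of the cell, 4 were higher and 7 lower at an unadjusted p under 0.05 (limma). After adjustment 0 rose and 3 fell (7.14%). Metallothioneins, which bind zinc and copper and whose near-identical copies may share signal, made up 2 of the falls. MT1H read 9.42 and 9.35 against 8.93 and 8.77 (-0.53, adjusted p = 0.0221) and MT2A 6.98 and 6.61 against 5.97 and 5.96 (-0.83, adjusted p = 0.00535). TXNRD1, thioredoxin reductase, read 10.80 and 10.95 against 10.44 and 10.38 (-0.47, adjusted p = 0.0483). All 3 calls were lost without either Notch1 array, those of MT1H and TXNRD1 also without GFP replicate 1 and that of TXNRD1 without GFP replicate 2 (-0.83 to -0.39 over these fits). SLC31A1, the copper importer, rose from 6.33 and 6.84 to 7.96 and 7.87 (1.33, SE 0.17, adjusted p = 0.000924). The actin list, with 54 genes, had 4 rises and 0 falls, but 2 rises without either Notch1 array and 7 without GFP replicate 2. Of these CNN3, a calponin that binds actin, rose from 4.52 and 5.01 to 6.29 and 6.62 (1.69, SE 0.17, adjusted p = 0.000197, or 1.45 with values under log2 5 raised). NEFL, the light neurofilament chain, read 8.48 and 9.10 against 10.39 and 10.53 (1.67, SE 0.18, adjusted p = 0.00025), although its other probe set, with a mean of 4.77, was not called (0.23).

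The large housekeeping families held few or no calls, beside 4.4% higher and 2.22% lower over all genes. The lists of 18 to 32 genes below are too short for a count of 0 to set them apart from those shares. None of 47 cytosolic ribosomal protein genes was called (at an unadjusted p under 0.05, 0 higher and 1 lower, limma), and their differences ran from -0.36 to 0.21 with a median of -0.01. Of 32 proteasome subunits 0 were called (unadjusted 2 higher and 1 lower), of 18 tRNA synthetases 0 (1 and 2) and of 24 genes of ribosome biogenesis 0 (5 and 1). Oxidative phosphorylation had 1 rise and 0 falls among 56 genes with a median difference of 0.10, and splicing factors 1 rise and 1 fall among 64 with a median of 0.11. Without GFP replicate 2 there were 5 rises in ribosome biogenesis, 5 in oxidative phosphorylation, 6 among splicing factors and 1 among proteasome subunits.

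A probe set annotated to MAP2K5, a kinase of the ERK5 cascade, stood apart from every other. It read 12.75 and 12.79 on the GFP arrays and 4.05 and 2.94 on the Notch1 arrays, a difference of -9.27 (SE 0.30, adjusted p = 8.19e-08), or -7.77 with values under log2 5 raised. The 4 other MAP2K5 probe sets, with means of 5.11 to 7.18, lay at -0.17, -0.12, -0.05 and 0.06 and were not called, and the LNCaP arrays showed the same gap at the first probe set (-9.34). The value is therefore given for that probe set and not for the gene. Among other well expressed falls, AP1S1, a subunit of a clathrin adaptor, went from 9.22 and 9.61 to 7.91 and 7.96 (-1.48, 2.79-fold lower, SE 0.15, adjusted p = 0.000214). EPAS1, the oxygen-sensing factor HIF2A, read 6.83 and 6.58 against 7.02 and 6.86 and was not called (0.23, SE 0.14, adjusted p = 0.317), and its other probe set, with a mean of 1.57, lay at -0.04.

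The lists that mark other cells a culture could hold are short. In them even 1 call is a large share beside the 2.22% of all genes that fell. Of 15 leukocyte genes 9 had a mean under log2 5. At an unadjusted p under 0.05 (limma) 0 of the 15 were higher and 4 lower. After adjustment 0 rose and 1 fell (6.67%). It was ITGB2, an integrin chain of white cells, at 4.24 and 3.98 against 3.47 and 3.70. That call was lost with values under log2 5 raised and without GFP replicate 1 or either Notch1 array (-0.64 to -0.39). Their summed linear level was 888 to 930 on the GFP arrays and 750 to 808 on the Notch1 arrays. Of 12 stromal genes 0 were called (0 higher and 3 lower at an unadjusted p under 0.05), with sums of 1722 to 1795 and 1657 to 1663. Of 11 neuroendocrine genes 1 fell (9.09%), the peptide NTS, and it read 3.38 and 3.99 against 1.77 and 1.75, all in the background. Of 35 interferon response genes 0 rose and 1 fell (2.86%), with a median difference of -0.20. At an unadjusted p under 0.05 (limma) 1 was higher and 9 were lower, and 29 of the 35 differences were under 0.

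Arrays labelled as overexpressing Notch1 were also compared with GFP arrays in LNCaP cells, and the difference between the 2 effects was tested in the same fit. No source used here says whether both lines received the same vector for the same time. The PC3 effect was larger (more upward) than the LNCaP effect for 963 of 12558 probe sets (7.67%) and smaller for 815 (6.49%). HES1 rose by 2.56 in PC3 and 2.78 in LNCaP, and the difference of these effects, -0.23 (SE 0.16), did not pass (adjusted p = 0.36). TSPAN8 and BMP6 likewise had near equal rises in both lines, of 2.02 and 2.00 and of 2.09 and 2.22, with differences of 0.02 (SE 0.18) and -0.13 (SE 0.22). CXCL8 rose by 3.40 in PC3 against 0.15 in LNCaP (difference 3.26, SE 0.18, adjusted p = 7.87e-06). CDKN1A showed 1.74 against 0.10 (difference 1.64, SE 0.18, adjusted p = 0.000278), and SMAD3 1.53 against 0.68 (difference 0.84, SE 0.24, adjusted p = 0.0404). In TOB1 and CEBPB the directions were opposite, 0.91 against -1.30 and 0.85 against -1.13, and in LMNB1 they were opposite the other way, -0.68 against 1.42.

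**Figure D5:**
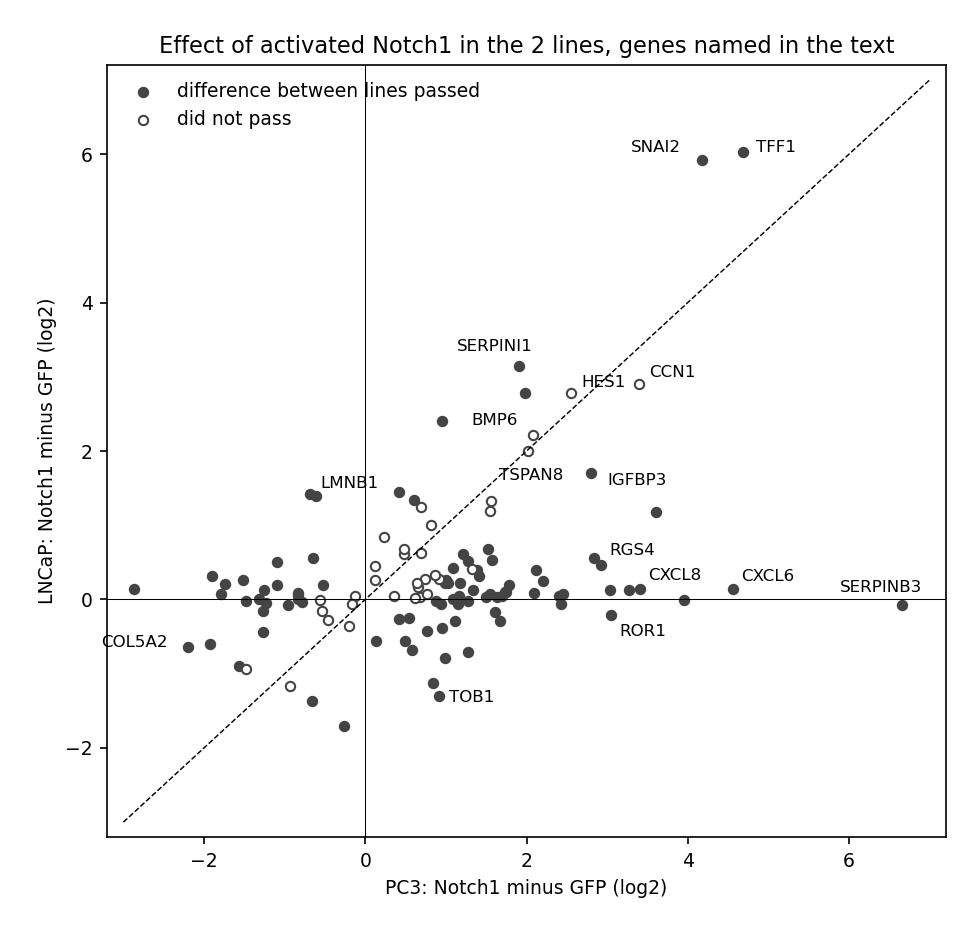
Log2 difference, Notch1 minus GFP, in PC3 (horizontal axis) and in LNCaP (vertical axis) for 122 genes named in the text, without MAP2K5, with filled points where the difference between the 2 effects passed the test (adjusted p under 0.05) and open points where it did not. HES1, TSPAN8 and BMP6 lie near the line of equal effects, and CXCL8, SERPINB3 and ROR1 lie near 0 for LNCaP.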

How the data were processed

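RNA of LNCaP and PC3 cells expressing activated Notch1 or GFP was hybridised to Affymetrix U95Av2 arrays. Per the methods, the authors summarised the raw array files with RMA (background correction, quantile normalization and 1 summary value for a probe set) and tested them with limma. They deposited 1 log2 value per probe set and array, which was analysed as it stood. No source used here gives the versions or says whether both lines were normalized together. The number of arrays limits the precision.

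Groups came from the labels. Of 12625 probe sets 67 Affymetrix controls were left out. Genes were named by the platform annotation from the 10943 probe sets with 1 symbol (545 had several, 1070 none), and a gene with several was represented by the brightest over the 4 PC3 arrays. In R 4.3.3, limma 3.58.1 fitted 4 group means to all 8 arrays (4 residual and 6.37 prior degrees of freedom). Tests are two-sided, with Benjamini-Hochberg adjusted p-values over all 12558 probe sets. The fit was tested on simulated data. Standard errors (SE) are those of the fit.

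The text names HES1, CDKN1A, SMAD3, EPAS1 and CXCL6, genes from the 25 largest rises and falls at well expressed levels and the 10 largest under them, and members of 64 gene lists. The members, lists and rules were chosen with earlier results of these data known. Lists are described by counts and medians beside those of all genes, with no test of the list. Some genes belong to several lists and are counted in each, such as SERPINB3, CDKN1A, BTG1 and ADAM10, so the counts of different lists are not independent. Replicate 1 arrays deviated together from their group means (r = 0.124 to 0.545 across probe sets, over all 6 pairs of groups). The counts over all and over well expressed probe sets are therefore printed for a fit blocked on the replicate number, although no source says what that number marks. Family counts are given without the block, and many moved with it. Rises went from 5 to 9 in DNA replication, in ER chaperones and in the amino acid response. Falls among chemokines went from 1 to 4, while serpins kept 5 rises and 2 falls. Other alternatives were median centring, quantile normalization, the PC3 arrays alone, a trended prior, a floor at log2 5, a filter on dim probe sets, another level for well expressed, and leaving out each array. NOTCH1 and HEY1 were not analysed here. Promoters came from RefSeq (GRCh38.p14), for 6617 of 8226 genes.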

Additional observations from a re-analysis of the deposited data

Results flagged for a closer look

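With 2 arrays in each group no single array could be set apart by a test of outliers. The effect of activated Notch1 differed between the lines, by a test of the difference itself in the same limma fit (adjusted p under 0.05 over all probe sets), for 90 of the 123 genes named in the report. Each value below is the PC3 effect minus the LNCaP effect in log2, so a value above 0 is a larger rise or a smaller fall in PC3. Protease inhibitors and secreted epithelial proteins had larger rises in PC3 for SERPINB3 (6.73), CSN1S1 (3.14), SERPINB1 (2.91), TCN1 (2.49), SERPINB7 (2.35), PI3 (1.96), CEACAM6 (1.73), SLPI (1.04), SERPINA1 (0.77) and TFF2 (0.60) and smaller ones for SERPINI1 (-1.24) and TFF1 (-1.34). Among cytokines, early response genes and receptors the difference was upward for CXCL6 (4.42), CXCL8 (3.26), CXCL2 (2.01), IL18 (1.60), IL1B (1.47), IER3 (0.99), ROR1 (3.26), ADGRG6 (2.43), HBEGF (1.12), ADORA2B (0.77) and RGS4 (2.46), and it was downward for LPAR1 (-1.86), RGS2 (-0.68) and VEGFC (-1.39). Among growth-restraining, stress and cell cycle genes it was upward for PLK2 (2.27), TOB1 (2.21), KLF6 (1.99), PMAIP1 (1.78), CDKN1A (1.64), BTG1 (1.41) and GADD45A (0.66) and downward for KLF4 (-1.21), RRM2 (-1.46) and LMNB1 (-2.10). In the TGF-beta and BMP pathways and in Notch ligands it was upward for SMAD3 (0.84) and JAG2 (1.44) and downward for FST (-1.11) and ID1 (-1.03). Among keratins and S100 proteins it was upward for KRT75 (1.58), KRT15 (1.08), KRT16 (0.99) and S100A2 (0.96). Genes of surface, matrix, junctions and cytoskeleton were higher in the PC3 effect for PKP2 (2.38), NEFL (1.97), CNN3 (1.64), CAV2 (1.30), LGALS3 (1.21), STOM (1.10), CD44 (0.73), CLDN3 (0.70) and EPCAM (0.69) and lower for ITGB2 (-0.71), COL5A2 (-1.55), SNAI2 (-1.75), ITGB4 (-1.77) and ANXA10 (-1.95). Metalloproteinases, their inhibitor and trypsins gave TIMP1 (1.65) and MMP7 (1.46) upward and MMP1 (-3.005), MMP13 (-2.22), PRSS3 (-1.61), PRSS2 (-2.01) and SERPIND1 (-1.19) downward. Growth factor binding proteins and ERK feedback genes gave IGFBP3 (1.10) and CCN2 (0.80) upward and DUSP4 (-0.83), PHLDA1 (-0.88), DKK1 (-0.92) and IGFBP4 (-1.29) downward. Metabolic, ER and stress response genes gave CYP1B1 (3.96), CEBPB (1.97), SAT1 (1.77), HSPA5 (1.33), FASN (1.25), SLC31A1 (1.20), SQLE (1.19), SLC7A5 (1.05), SCD (0.90), CALR (0.79) and ATF4 (0.69) upward and ACAA2 (-0.74), PLIN2 (-0.75), ADA (-0.80), MT2A (-0.84), SLC7A8 (-0.90) and FABP4 (-1.33) downward. The adaptor subunit AP1S1 and the peptide NTS differed downward, AP1S1 (-1.46) and NTS (-1.33). For genes with values under log2 5, such as SERPINB3, CXCL6, SNAI2, CYP1B1 and MMP1, these sizes depend on where background lies. No explanation of these differences was tested.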

How the results depend on the processing

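Of 112 called genes in the text 0 turned under the 15 alternatives of the fit, and 67 kept their call under every one they entered. With values raised to log2 5, CEACAM6, ITGB2, MMP13, NTS and PKP2 had a difference of 0 and so no direction, and the filter on dim probe sets left out 8 of the 112. Against 526 higher and 253 lower calls, the PC3 arrays alone gave 350 and 120, the replicate block 919 and 588, and values raised to log2 5 gave 208 and 139. Leaving out 1 array gave 187 to 1003 higher and 64 to 691 lower. At well expressed levels, against 174 and 43, the PC3 arrays alone gave 109 and 27, the block 324 and 84, quantile normalization 106 higher, the floor 89 higher, a limit of log2 7 gave 283 and 84, a limit of log2 9 gave 96 higher, and leaving out 1 array gave 55 to 332 and 19 to 52. The floor gave many dim probe sets no spread and took the prior degrees of freedom from 6.37 to 0.386. For the other settings the cause was not tested. The replicate block lost none of the 779 calls. The PC3 arrays alone kept 464 of the calls, and among the named genes 99 of 112. Quantile normalization kept 98, without the calls of ACAA2, ALOX15, AZIN1, BTG1, CALR, CAV1, DUT, FASN, ITGA3, ITGB2, MCM6, SLC7A5, TGFB1 and TOB1. JAG1 and KLK3, not called, changed sign when 1 array was left out. JAG1 ran from -0.024 (without GFP replicate 2) to 0.25, and KLK3 from -0.32 to 0.054 (without GFP replicate 1), with 0.01 without Notch1 replicate 1. Another choice of probe sets, their mean, moved 1 list median by at least 0.1, that of the CDK inhibitors to -0.14. Signals under log2 5 held 36.6% to 37.6% of probe sets on each PC3 array and limit what can be said of dim genes.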
